A study of Mus musculus with 6 samples.

Results

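A set of 10 genes was followed across hearts of wild-type mice and of mice without caveolin-1, because each is used to tell endothelial cells, or a kind of vessel, from the rest of the heart. They were taken by symbol: every probe set that the platform annotation assigns to 1 symbol, that symbol being Emcn, Egfl7, Ecscr, Mmrn2, Ptprb, Vwf, Ly6c1, Aqp1, Aplnr or Rgcc. This gave 9 of the 10 genes, with 19 of the array's 45101 probe sets. In all, 18193 genes have a probe set of their own symbol alone. Ly6c1, a surface protein abundant on capillaries, has no value here, because its single probe set is annotated to both Ly6c1 and its close relative Ly6c2. The genes fall into 3 classes by their textbook use: general endothelial markers (Egfl7, Ecscr, Mmrn2 and Ptprb, 12 probe sets), markers strongest in veins or on the venous side (Emcn, Vwf and Aplnr, 4 probe sets) and capillary markers (Ly6c1, Aqp1 and Rgcc, 3 probe sets with a value). The classes overlap in life: Emcn and Aplnr are also made in many capillaries, and Vwf and Emcn in the endocardium.

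RNA of 6 heart samples of male mice, aged 5 to 6 months and fasted for 6 hours, was hybridised to Affymetrix mouse expression arrays, 1 array per sample. There were 3 wild-type and 3 Cav1 knockout samples, each called a heart here. Knockout replicates are numbered here in the order of the samples, since their titles carry no replicate number. Cav1 encodes caveolin-1, the coat protein of caveolae, which are especially dense in the endothelium of heart capillaries. The labels give neither the strain nor the part of Cav1 that was deleted. They also do not say whether the samples of a group are separate animals, so the spread behind each p-value may be technical.

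Endothelial cells line every vessel, and in the heart most of them belong to capillaries running between the muscle cells. Their general markers serve adhesion, junctions and vessel growth. Capillary cells also carry channels and transporters for exchange with muscle. Cells on the venous side and in the endocardium are known for storing von Willebrand factor and for a mucin-like coat. In whole tissue the level of such a marker depends on both the number of the cells and the RNA in each. A change in the number of cells and a change in the RNA per cell therefore cannot be told apart.

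Intensities are given as deposited, on a linear scale. Differences are knockout minus wild type on the scale of log2(intensity + 16) after quantile normalisation, which understates the change of low genes. They were tested with limma across 22519 probe sets with Benjamini-Hochberg adjustment, and a probe set was called at an adjusted p under 0.05. Whether groups overlap was judged on the normalised scale. At an unadjusted limma p under 0.05, 10.3% of all tested probe sets were higher and 9.75% lower in knockout, and unadjusted counts below are to be read against these shares. Across the array 3.17% of the probe sets tested were called, 2.36% as higher and 0.813% as lower in knockout. Of these calls 74.4% were higher, and the share was 90.9% with the intensities as deposited and 93.5% when centred on the median. The Cav1 probe set fell from 3958 ± 268 to 108 ± 10.3 (SD, n = 3 each) in intensity, which fits the labels of all 6 hearts. Summed intensity ran from 11736722 to 12397257 per array. The 8 cardiomyocyte markers lay at percentile 99.3 or above of all probe sets and 0 of them were called or had an unadjusted limma p under 0.05, with differences between -0.043 and 0.0092. At the top of the scale quantile normalisation leaves little room for a difference, so these values check the tissue and not its constancy. The number of arrays limits the precision.

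Of the 19 probe sets 18 were bright enough to be tested, and 4 rose in knockout hearts: that of Ecscr, 2 of Mmrn2 and 1 of Aplnr. None of the 18 fell. All 18 differences were above 0, from 0.024 to 0.64 with a median of 0.24, against a median of -0.0096 over all probe sets tested, and none changed sign with the intensities as deposited or centred on the median. In 9 of the 18 the 3 knockout hearts lay above all 3 wild-type hearts, a pattern that 12.3% of all tested probe sets showed. The opposite pattern, all knockout hearts below, was seen in none of the 18 and in 14% of all. Among the 4 called probe sets that of Ecscr reached 1.5-fold. Other settings added called probe sets at that size: those of Aplnr and 1456768_a_at of Mmrn2 with the intensities as deposited or centred on the median, that of Aplnr with a pseudocount of 1 or without knockout replicate 2, and 1456768_a_at without wild type replicate 2. The probe sets are not independent, since several belong to 1 gene, and the pairs 1451427_a_at and 1451428_x_at of Egfl7 and 1439518_at and 1456768_a_at of Mmrn2 are each annotated to 1 shared cDNA record.

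**Figure D1:**
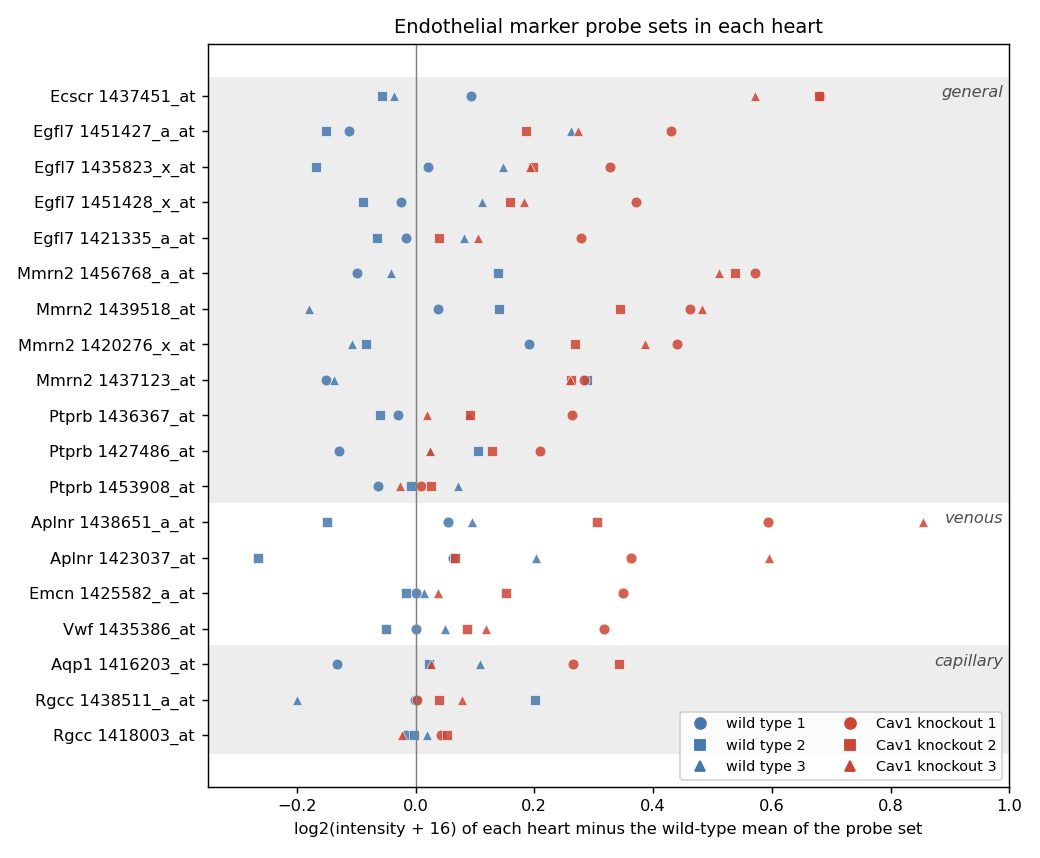
Each row is a probe set and each point a heart, placed by its log2(intensity + 16) minus the wild-type mean of that probe set, with blue for wild type, red for Cav1 knockout and the symbol shape for the replicate. The red points of Ecscr and of 1456768_a_at of Mmrn2 stand clear of the blue ones, and those of Aplnr are spread out. Those of Rgcc lie among the blue ones for 1438511_a_at and close to them on both sides for 1418003_at.

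Upstream sequence was used for 5 of the 10 genes, from RefSeq's table of assembly GRCm38.p6. Shown are the 4 with a value: Egfl7 and Emcn, whose groups did not overlap at the brightest probe set, and Aqp1 and Rgcc, whose groups did. Each is the 250 bases before the annotated start, 5′ to 3′ on the strand of the gene, and for Egfl7 the most upstream of 3 starts. Capitals mark AGGAAG or CGGAAG on either strand, the core bound by ETS factors such as Erg, which drive many endothelial genes. The 4 windows are chr2:26580833-26581082 (Egfl7, plus strand), chr3:137340828-137341077 (Emcn, plus strand), chr6:55336049-55336298 (Aqp1, plus strand) and chr14:79301636-79301885 (Rgcc, minus strand).
Egfl7: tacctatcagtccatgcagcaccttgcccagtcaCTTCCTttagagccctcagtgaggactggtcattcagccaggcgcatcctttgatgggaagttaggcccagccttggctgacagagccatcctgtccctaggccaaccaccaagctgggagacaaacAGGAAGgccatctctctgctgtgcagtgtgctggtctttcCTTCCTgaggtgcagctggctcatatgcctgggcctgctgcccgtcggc
Emcn: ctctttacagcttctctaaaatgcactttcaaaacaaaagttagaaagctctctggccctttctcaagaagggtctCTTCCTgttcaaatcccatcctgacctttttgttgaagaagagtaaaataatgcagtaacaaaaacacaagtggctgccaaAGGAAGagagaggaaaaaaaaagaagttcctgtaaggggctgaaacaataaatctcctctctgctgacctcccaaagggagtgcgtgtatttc
Aqp1: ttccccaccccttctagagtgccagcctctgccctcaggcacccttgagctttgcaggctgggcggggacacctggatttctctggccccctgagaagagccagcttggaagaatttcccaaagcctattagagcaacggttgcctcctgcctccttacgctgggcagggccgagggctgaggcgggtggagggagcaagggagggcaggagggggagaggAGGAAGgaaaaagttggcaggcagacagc
Rgcc: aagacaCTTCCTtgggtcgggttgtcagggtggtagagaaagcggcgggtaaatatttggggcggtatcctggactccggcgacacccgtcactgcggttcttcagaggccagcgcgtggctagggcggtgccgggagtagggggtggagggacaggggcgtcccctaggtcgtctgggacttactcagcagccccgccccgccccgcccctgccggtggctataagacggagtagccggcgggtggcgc

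The window of Egfl7 shown held 3 such matches, that of Emcn 2, and those of Aqp1 and Rgcc 1 each. The windows not shown held 1 and 0 (the other starts of Egfl7) and 0 and 3 (the 2 starts of Ly6c1). The general class has windows of Egfl7 alone and the venous class of Emcn alone, so sorting by class cannot be judged. Among all 32851 windows of this length, 39.2% held at least 1 and 2.78% held 3 or more. The GATA cores AGATAA and TGATAA, searched on both strands, were in none of the 4, in 1 of those not shown (the second start of Egfl7) and in 16.6% of all windows. A match is a description of letters and says nothing of binding. None of the genes called is among those shown, and whether matches go with the differences was not tested.

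Among the general markers, Ecscr had the largest difference. Ecscr encodes a small transmembrane protein of endothelial cells that takes part in their migration and survival. Its probe set stood at intensities of 178, 175 and 173 in the wild-type hearts and 308, 309 and 279 in the knockout hearts. Every knockout heart was well above every wild-type heart, and the hearts within a group differed little. This was a log2 difference of 0.64, a fold of 1.56 (SE 0.066, 95% interval 0.50 to 0.79, limma adjusted p = 0.00194). Ecscr passed under all 13 alternatives, with differences from 0.62 to 0.74.

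Mmrn2 rose as well. It encodes multimerin-2, an extracellular matrix glycoprotein laid down by endothelial cells. Its brightest probe set, 1456768_a_at, gave 636, 824 and 715 in wild type, against 1119, 1098 and 1054 in knockout. The knockout hearts were close to each other and all above the highest wild-type heart, replicate 2. Its log2 difference was 0.54 (SE 0.063, 95% interval 0.40 to 0.68, limma adjusted p = 0.00355), and it passed under all 13 alternatives.

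The other 3 probe sets of Mmrn2 gave smaller differences. That of 1439518_at, with intensities of 222, 265 and 203 in wild type, against 338, 313 and 336 in knockout, was 0.43 (SE 0.086, limma adjusted p = 0.0337). This call was lost under 6 of the 13 alternatives, at limma adjusted p of up to 0.142: without any 1 heart other than wild type replicate 2, and without the trend in the spread. Without overlap but short of the threshold, 1420276_x_at stood at 0.36 (limma adjusted p = 0.0597). In 1437123_at, wild type replicate 2 was at 417, beside 419, 416 and 407 in knockout, while the other wild-type hearts were at 273 and 297. With that heart the difference was 0.27 (limma adjusted p = 0.213), and without it 0.41 (limma adjusted p = 0.0129).

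Egfl7, a secreted protein of endothelial cells that helps to shape new vessels and whose gene hosts miR-126, did not pass at any of its 4 probe sets. The brightest, 1451428_x_at, had 463, 490 and 553 in the wild-type hearts and 685, 595 and 589 in knockout. The groups did not overlap, although wild type replicate 3 lay near the lower knockout hearts. The log2 difference was 0.24 (95% interval 0.070 to 0.40, limma adjusted p = 0.128). The other 3 ran from 0.14 to 0.30, with limma adjusted p of 0.158 to 0.329, and 1 of them had groups that did not overlap. Egfl7 passed under none of the 13 alternatives at any probe set.

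Ptprb did not pass either. It encodes VE-PTP, the receptor phosphatase that restrains the angiopoietin receptor Tek. Its brightest probe set stood at 979, 1042 and 1137 in wild type, against 1300, 1163 and 1080 in knockout, so that wild type replicate 3 lay above knockout replicate 3. The log2 difference was 0.12 (95% interval -0.030 to 0.28, limma adjusted p = 0.339), and a second probe set also gave 0.12. The third was too dim to be tested, at 22.0 to 25.2 in all hearts. Tek, named here for this link after its value was seen, rose by 0.49 (SE 0.060, limma adjusted p = 0.0043). Whether the differences of Ptprb and Tek differ from each other was not tested.

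Of the markers of the venous side, Aplnr rose at its brighter probe set. Aplnr is the receptor of the peptide apelin, found on venous and many capillary endothelial cells. This probe set had 1185, 1110 and 1299 in wild type, against 1870, 1528 and 2203 in knockout. All knockout hearts were higher, but they were far apart, with knockout replicate 2 nearest to the wild-type hearts. On the log2 scale it was higher by 0.58 (SE 0.12, 95% interval 0.31 to 0.86, limma adjusted p = 0.0404). The call was lost under 7 of the 13 alternatives, at limma adjusted p of up to 0.150, with the difference between 0.45 and 0.72 throughout. Leaving out any 1 heart other than knockout replicate 2 ended it. The dimmer probe set ordered the knockout hearts the same way, at 220, 178 and 258, against 159, 135 and 187 in wild type, and its difference of 0.34 did not pass (limma adjusted p = 0.242). Apln, the ligand, stood at -0.16 (SE 0.062, limma adjusted p = 0.203), named here after its value was seen.

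Emcn and Vwf gave nearly the same small difference. Emcn encodes endomucin, a mucin-like surface protein of veins and capillaries that hinders the adhesion of white blood cells. It stood at 581, 630 and 633 in wild type, against 818, 713 and 646 in knockout. Vwf encodes von Willebrand factor, which tethers platelets to damaged vessel wall. It stood at 593, 625 and 661 in wild type, against 815, 696 and 699 in knockout. In both genes the groups did not overlap, and knockout replicate 1 was well above the other knockout hearts. Log2 differences were 0.18 for Emcn (95% interval 0.012 to 0.35, limma adjusted p = 0.223) and 0.17 for Vwf (95% interval 0.024 to 0.33, limma adjusted p = 0.196). Without knockout replicate 1 they were 0.095 and 0.10.

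Neither capillary marker with a value passed. Aqp1, the water channel of continuous capillary endothelium and of red cells, stood at 2612, 3076 and 3197 in wild type, against 3598, 3766 and 3073 in knockout. Knockout replicate 3 lay within the wild-type range, so the groups overlapped. A log2 difference of 0.21 resulted (SE 0.084, 95% interval 0.020 to 0.40, limma adjusted p = 0.212), and 0.30 without knockout replicate 3 (limma adjusted p = 0.0636).

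Rgcc, a cell cycle regulator enriched in capillary endothelium, had the smallest differences among the tested probe sets. Its brighter probe set gave 920, 1153 and 852 in wild type, against 1001, 1035 and 1038 in knockout, the knockout values lying inside the wild-type range. This left a log2 difference of 0.040 (95% interval -0.16 to 0.24, limma adjusted p = 0.822). Without wild type replicate 3 it was -0.060. The other probe set gave 468, 526 and 523 against 546, 554 and 513, and a difference of 0.024 (95% interval -0.083 to 0.13, limma adjusted p = 0.799). Both upper bounds lay below the lower bounds of Ecscr and of 1456768_a_at of Mmrn2, 0.50 and 0.40.

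**Figure D2:**
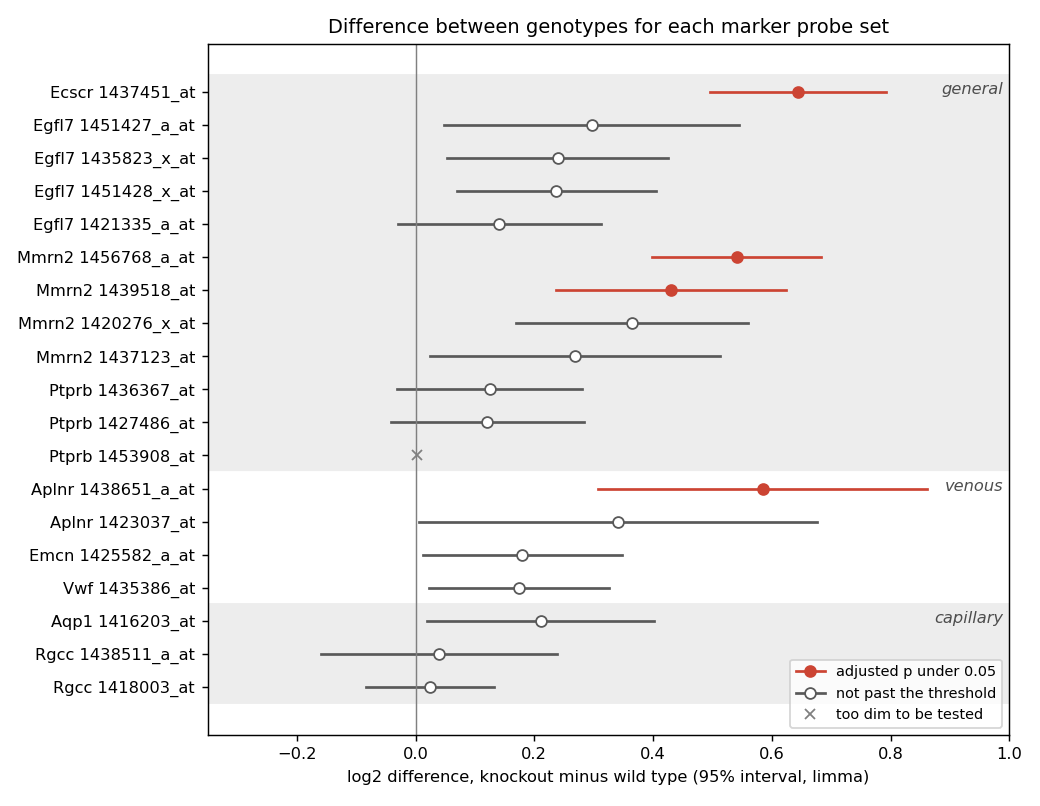
Points are log2 differences, knockout minus wild type, with limma's 95% intervals, for each probe set in its class. Red marks the 4 probe sets with an adjusted p under 0.05, all at 0.43 or above, and the cross marks the probe set too dim to be tested.

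The calls were counted by class. Of the general markers 2 of 4 genes rose (3 of 11 tested probe sets), of the venous ones 1 of 3 (1 of 4 probe sets) and of the capillary ones 0 of 2 (0 of 3 probe sets). At an unadjusted limma p under 0.05 the counts of probe sets were 8 of 11, 4 of 4 and 1 of 3, all higher, beside the 10.3% of all tested probe sets. With 3 probe sets the capillary count says little. With 1 probe set a gene, the brightest, the median log2 difference was 0.39 for the general, 0.18 for the venous and 0.13 for the capillary class. The order held with the intensities as deposited (0.44, 0.23 and 0.16), centred on the median (0.46, 0.25 and 0.17) and when the probe sets of a gene were averaged (0.31, 0.18 and 0.12). It changed without knockout replicate 1 (0.35, 0.10 and 0.12) and without wild type replicate 2 (0.40, 0.17 and 0.18), where the capillary median was slightly above the venous one.

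Within a class the genes were spread. In the general class Ecscr and Mmrn2 were above 0.5 while Egfl7 and Ptprb were at 0.24 and 0.12. In the venous class Aplnr stood at 0.58, with Emcn and Vwf below 0.2. In the capillary class Aqp1 stood at 0.21, above Emcn, Vwf and Ptprb, and Rgcc at 0.040. The intervals of Ecscr and Ptprb did not overlap, nor did those of 1456768_a_at of Mmrn2 and Ptprb. Those of Aplnr and Emcn did.

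The mean of a class in a heart, relative to all hearts, shows how the hearts lie. For the general class it was -0.21, -0.21 and -0.16 in the wild-type hearts and 0.28, 0.17 and 0.13 in the knockout hearts. For the venous class it was -0.14, -0.23 and -0.10 against 0.26, 0.025 and 0.18. Both classes separated the groups. For the capillary class it was -0.13, 0.049 and -0.11 against 0.071, 0.13 and -0.011, and the groups overlapped.

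The general mean minus the capillary mean was -0.079, -0.26 and -0.054 in wild type, against 0.21, 0.046 and 0.14 in knockout, without overlap, a shift of 0.26. The other contrasts had groups that overlapped: general minus venous shifted by 0.074 and venous minus capillary by 0.19. These class contrasts are descriptions with no test, and with 3 hearts against 3 an exact test of a single value could not pass the threshold. The capillary class rests on 2 genes.

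**Figure D3:**
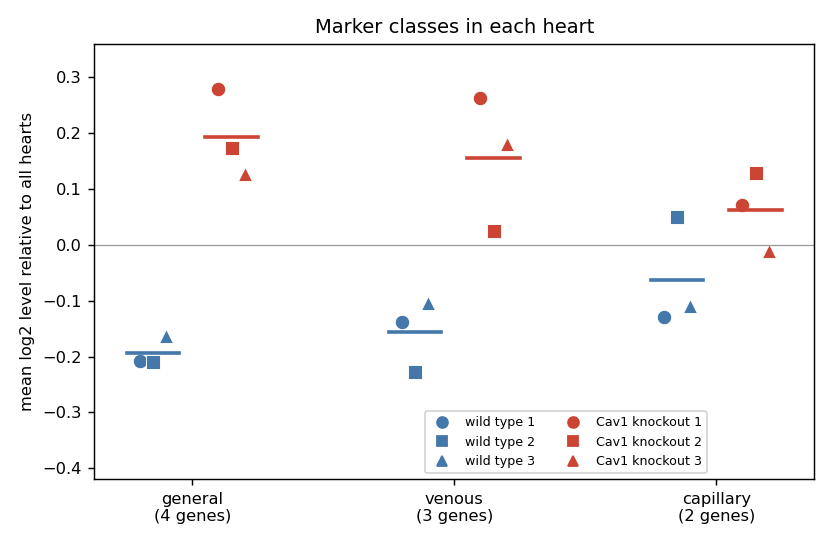
Points are the mean log2 level of the genes of a class in each heart, relative to the mean of all 6 hearts, and bars are the group means. The general and the venous class have all knockout hearts above 0 and all wild-type hearts below it, and in the capillary class wild type replicate 2 lies at 0.049 and knockout replicate 3 at -0.011.

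The hearts of a genotype were not alike across these markers. Knockout replicate 1 was the highest of all 6 hearts in 11 of the 18 tested probe sets, knockout replicate 3 in 3 and knockout replicate 2 in 2. Wild type replicate 2 was the highest in 2 and the lowest in 10.

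Other endothelial genes were counted by class in the same fit, with 1 probe set a gene. Of 18 further general endothelial genes 10 rose and 0 fell (at an unadjusted limma p under 0.05, 13 higher and 1 lower), with a median of 0.28. With the intensities as deposited or centred on the median, 9 rose. Cd34, a sialomucin, rose by 0.54 (SE 0.044, limma adjusted p = 0.000818), Pecam1, an adhesion molecule of endothelial junctions, by 0.71 and Nos3, the endothelial nitric oxide synthase, by 0.50. Robo4 and Kdr, named after their values were seen, stood at -0.25 and -0.039 and did not pass (limma adjusted p = 0.120 and 0.803). Of 10 further capillary genes 1 rose, Fabp4, a fatty acid binding protein also made in fat cells, by 0.15 (SE 0.031, limma adjusted p = 0.0359). The median of these 10 was 0.096, and at an unadjusted limma p under 0.05 there were 4 higher and 1 lower, beside 10.3% and 9.75% of all tested probe sets. Meox2, a transcription factor, stood at 0.46 (limma adjusted p = 0.0586) and did not pass. Nor did Timp4, a metalloproteinase inhibitor, at 0.66 (limma adjusted p = 0.0601). Of the 10 differences 6 were above 0. Apln, at -0.16, was the 1 lower at an unadjusted limma p under 0.05. Gpihbp1, Car4 and Tcf15, named after their values were seen, stood at -0.13, -0.057 and -0.025 and did not pass.

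Of 5 tested venous genes 0 passed, 3 were higher at an unadjusted limma p under 0.05, and the median was 0.16. Nrp2, a semaphorin and VEGF co-receptor, stood at 0.23, Vcam1, an adhesion molecule for white blood cells, at 0.29 and Ephb4, the venous ephrin receptor, at 0.15, with limma adjusted p of 0.144 to 0.189. Nr2f2, a venous transcription factor named after its value was seen, stood at -0.019 with groups that overlapped (limma adjusted p = 0.881). Of 2 tested endocardial genes Npr3, a natriuretic peptide receptor, rose by 0.61 (SE 0.084, limma adjusted p = 0.00675), and Cytl1 stood at 0.34 (limma adjusted p = 0.0765), while Hapln1 was near background, at percentile 6.06. The summed normalised intensity of the 3 was 618 to 765 in wild type, against 899 to 1011 in knockout. Vwf and Emcn are also made in the endocardium, and the part of endocardial cells in their values was not tested. Of 8 tested arterial genes 1 rose, Sema3g, a secreted semaphorin, by 0.65 (SE 0.080, limma adjusted p = 0.00456). Efnb2, the ligand of Ephb4, stood at 0.22 with groups that did not overlap (limma adjusted p = 0.0580). Unc5b, a netrin receptor, stood at -0.12 (limma adjusted p = 0.448). At an unadjusted limma p under 0.05, 2 of the 8 were higher and 0 lower. The arterial median was 0.014, and 0.10 when centred on the median.

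Markers of other cells that could carry some of the same transcripts were counted too. Vwf is also made by megakaryocytes. Of 6 tested platelet and megakaryocyte genes 0 passed and 1 was higher at an unadjusted limma p under 0.05. Their median difference was -0.061, with 2 of the 6 above 0. The summed normalised intensity of the list was 1244 to 1285 in wild type, against 1305 to 1322 in knockout. Itga2b, the platelet integrin, stood at -0.081 and Ppbp, a platelet chemokine, at 0.48 (limma adjusted p = 0.218). Aqp1 is abundant in red cells. The 2 tested red cell genes, Slc4a1 and Alas2, stood at -0.33 and -0.24 and did not pass (1 was lower at an unadjusted limma p under 0.05), and the summed intensity of 4 measured ones was 1070 to 1484 against 918 to 1244. The alpha globins were hardly covered: the 1 probe set of Hba-a1 alone was at percentile 10.3 and was not tested, and 3 more that carry several symbols were not used.

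Some lists of other cells held genes that rose. Lymphatic endothelium shares the general markers. Of its 5 tested genes Lyve1, Mmrn1 and Flt4 rose, the median was 0.34 and the summed intensity was 812 to 1021 in wild type, against 1275 to 1473 in knockout, while Prox1, its defining transcription factor, named after its value was seen, stood at 0.026 (limma adjusted p = 0.898). Of 8 tested monocyte and macrophage genes Cd14, Ptprc, C1qa and Mrc1, the last named after its value was seen, rose (3 passed when centred on the median), with a summed intensity of 3222 to 3560 against 4018 to 4259. The median of the 8 was 0.29, and at an unadjusted limma p under 0.05, 6 were higher and 0 lower. Ccr2, named after its value was seen, stood at -0.056 with groups that overlapped (limma adjusted p = 0.721). Of 6 mesothelial genes Lrrn4 rose, with a summed intensity of 541 to 904 against 946 to 1090. Of 8 fibroblast genes Col1a1 and Col3a1 rose, with a summed intensity of 13160 to 14999 against 15379 to 18829. All 8 differences were above 0, with a median of 0.18, and at an unadjusted limma p under 0.05, 4 were higher and 0 lower. Col1a2 stood at 0.33 and Lum, named after its value was seen, at 0.25. In both the groups did not overlap, and neither passed (limma adjusted p = 0.136 and 0.171). Pdgfra, Tcf21, Dpt and Dcn, named after their values were seen, stood at 0.12, 0.045, 0.062 and 0.10. Their groups overlapped and they did not pass (limma adjusted p of 0.379 to 0.757). The part of these cells in the values of the members was not tested.

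The remaining lists held no call. Of 8 genes of pericytes and smooth muscle, the cells that wrap the same vessels, 0 passed, 1 was higher and 1 lower at an unadjusted limma p under 0.05 (2 of 8, near the share of all tested probe sets), and their median was 0.016. Of 4 tested lymphocyte genes 0 passed with or without adjustment, with a median of -0.10. Of 2 tested adipocyte genes 0 passed (1 was lower at an unadjusted limma p under 0.05), with Adipoq at -1.89 (limma adjusted p = 0.109) and a summed intensity of 386 to 1001 in wild type, against 169 to 417 in knockout.

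**Figure D4:**
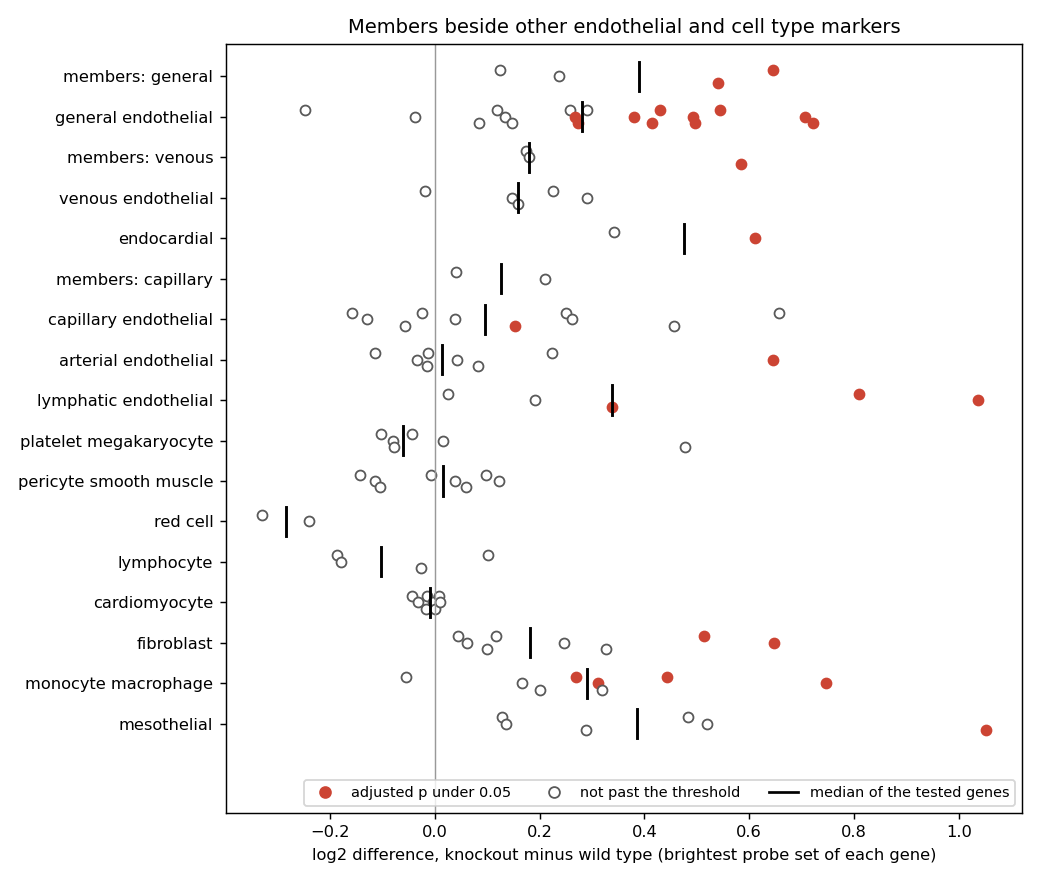
Each point is a tested gene at its brightest probe set, placed by its log2 difference, knockout minus wild type; red marks an adjusted p under 0.05 and the black bar is the median of the list. The adipocyte list, with Adipoq at -1.89, is not drawn. Red points are frequent among the general endothelial genes, 10 of 18, and 1 of 10 capillary genes is red.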

How the data were processed

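Affymetrix expression arrays were hybridised with biotin-labelled RNA made from 2 ug of total RNA of each heart, per the labels' protocols. The submitters' processing notes name GCOS 1.4 without saying what it did. In the deposited table each probe set has an intensity on a linear scale; background correction, summarisation and scaling are not given in the sources used here. Of the values of an array, 42.6% to 47.2% recur to the last digit in any other array, so some normalisation across arrays may precede the deposit.

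After leaving out 64 control probe sets, the values were brought to a common distribution (quantile normalisation, limma 3.58.1, R 4.3.3), because trimmed means (2% at each end) differed between arrays, from 154 in wild type replicate 1 to 167. A pseudocount of 16 was added before log2. The upper 50% of probe sets by mean over all arrays were tested with lmFit and eBayes with a trend and no covariate. Symbols are those of the 2016 platform annotation, which gives 1 symbol to 34945 probe sets.

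Named are all members, and up to 3 genes of each other list with the smallest p, beside those said to be named after their values were seen. Members and lists were chosen with earlier results of these data known, so no p adjusted over a list is given. Alternatives were the intensities as deposited, median centring, the upper 75%, no filter, a pseudocount of 1, no trend, array weights, and leaving out each heart. Protein sequences were not used here.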

Additional observations from a re-analysis of the deposited data

How the results depend on the processing

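The count of called member probe sets, 4, was 5 as deposited, median centred and with array weights, 4 with the upper 75% or a pseudocount of 1, 3 with no filter and 2 without the trend; leaving out 1 heart gave 2 to 4. It was 2 when wild type replicate 3, knockout replicate 1 or knockout replicate 3 was left out, and the 2 were then Ecscr and 1456768_a_at of Mmrn2. Over all probe sets the count of 714 was 411 without the trend and 1171 with array weights, and 188 to 745 without 1 heart (188 and 224 on leaving out knockout replicates 1 and 2, 302 and 466 on leaving out wild type replicates 3 and 1). The share of calls that were higher in knockout was 90.9% as deposited and 93.5% median centred, against 74.4%. The median of the general class was 0.46 median centred and 0.31 with probe sets of a gene averaged, against 0.39, and 0.35 to 0.41 without 1 heart. The one reversal was the brighter probe set of Rgcc, at -0.060 without wild type replicate 3 and at up to 0.14 without another heart. Median centring moved the median of all tested probe sets to 0.051. The cause of these shifts was not tested. No paired analysis was made because the labels pair no wild-type heart with a knockout heart, and a shared replicate number does not either.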
